A study of Mus musculus with 6 samples.

Results

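The FoxO transcription factors Foxo1, Foxo3 and Foxo4, the ubiquitin ligases of muscle atrophy Fbxo32, Trim63, Fbxo30, Fbxo21 and Trim32, and the metabolic regulator Klf15 were followed in mouse muscle stem cells exposed to an epoxy fatty acid. The 9 genes were taken by symbol from the 55494 rows of the deposited count table, and 8 of them were among the 16097 genes that passed the filter on low counts. Trim63 did not pass. Primary muscle stem cells of wildtype mice were cultured for 2 days either without (control, 3 libraries) or with 11,12-EET (3 libraries), and their poly(A) RNA was sequenced in bulk. 11,12-EET is an epoxyeicosatrienoic acid, a lipid mediator made from arachidonic acid by cytochrome P450 enzymes. The dose, the vehicle, and the age and sex of the mice were not given in the sources used here. No label ties the 3 libraries of a group to different mice or dishes, so each p-value rests on library-to-library spread that may be technical.

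FoxO factors bind DNA in the nucleus until insulin or IGF signalling, through PI3K and Akt, phosphorylates them and sends them to the cytoplasm, where 14-3-3 proteins hold them. In skeletal muscle, nuclear FoxO raises transcription of Fbxo32, which encodes atrogin-1, and Trim63, which encodes MuRF1. Both ligases mark muscle proteins for the proteasome during fasting, disuse and glucocorticoid excess. In muscle stem cells FoxO factors are known for a role in quiescence. Much of this control acts on protein phosphorylation and location, which RNA counts do not measure.

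Promoter sequence was taken from RefSeq (GRCm38.p6), where 7 of the 9 genes matched; Foxo4 and Fbxo32 had no entry. Bases were kept where they lie before both the RefSeq and the GENCODE start, which left none for Fbxo30, so 6 windows remained. Each was searched on both strands for the FoxO element GTAAACA, the glucocorticoid receptor half-site TGTTCT and the GC box GGGCGG, over at most 250 bases before the start of transcription. The promoter of Trim63 is shown because it alone among those 6 held either of the first motifs, and those of Trim32, Foxo1 and Foxo3 because these 3 genes had the smallest p-values among the members. Capitals mark the motif matches, on either strand, and each sequence is written 5′ to 3′ along its gene. The 4 windows are chr4:134314870-134315119 on the plus strand, chr4:65604736-65604985 on the plus strand, chr3:52268087-52268335 on the plus strand and chr10:42276756-42276945 on the minus strand.
Trim63: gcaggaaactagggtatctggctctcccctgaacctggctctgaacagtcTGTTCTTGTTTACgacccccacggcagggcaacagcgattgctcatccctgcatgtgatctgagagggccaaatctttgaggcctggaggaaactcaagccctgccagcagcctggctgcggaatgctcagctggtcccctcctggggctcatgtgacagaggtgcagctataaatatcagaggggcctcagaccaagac
Trim32: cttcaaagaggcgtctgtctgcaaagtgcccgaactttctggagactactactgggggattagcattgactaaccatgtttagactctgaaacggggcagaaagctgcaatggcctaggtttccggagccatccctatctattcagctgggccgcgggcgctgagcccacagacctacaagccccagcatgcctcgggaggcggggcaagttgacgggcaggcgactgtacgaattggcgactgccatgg
Foxo1: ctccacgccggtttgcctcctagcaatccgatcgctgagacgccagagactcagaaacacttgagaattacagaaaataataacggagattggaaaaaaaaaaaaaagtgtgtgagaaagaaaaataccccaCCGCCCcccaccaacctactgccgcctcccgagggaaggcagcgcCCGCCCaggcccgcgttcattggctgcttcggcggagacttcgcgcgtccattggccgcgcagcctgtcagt
Foxo3: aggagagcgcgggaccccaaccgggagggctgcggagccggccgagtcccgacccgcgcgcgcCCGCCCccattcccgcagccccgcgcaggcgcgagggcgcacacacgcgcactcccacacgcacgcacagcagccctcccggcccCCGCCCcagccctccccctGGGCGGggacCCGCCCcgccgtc

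In the Trim63 promoter the half-site TGTTCT was followed directly by TGTTTAC, the reverse complement of the FoxO element, with the pair starting at base 51 of the printed window. Adjacent glucocorticoid receptor and FoxO sites are a known feature of this promoter. The Foxo1 window held 2 GC boxes and the Foxo3 window 4, and the Trim32 window held no match to the 3 motifs. The windows of Fbxo21 and Klf15, which are not printed, held GC boxes too. Over 32851 RefSeq promoter windows of 250 bases, 3.17% held GTAAACA, 16.1% held TGTTCT and 32.7% held GGGCGG. A match describes these letters and no binding was measured.

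The libraries held 30371291 to 37243882 counts. Fold changes across the genome followed mRNA length: the median log2 fold change (EET minus control) was 0.96 for protein-coding genes with mRNAs under 1000 bp and −0.65 for those of 8000 bp and over. Each member is therefore given as counted and again after removing from each library its dependence on mRNA length and GC content, which sets a gene against mRNAs of like length and GC. Of the 10 markers of satellite cells and myoblasts 10 passed the filter, and their summed level was 3018 to 3208 CPM (library-size and TMM scaled counts) in controls and 3204 to 3292 with EET. As counted 4 of the 10 were higher and 2 lower, the latter Pax7 (−0.45) and Megf10 (−0.64), and with the trend removed 1 was higher. Markers of other cells were present too. Endothelial markers summed to 242.1 to 253 CPM in controls and 141.4 to 156.8 with EET, with 4 of 6 lower as counted and 5 of 6 after trend removal. Smooth muscle and pericyte markers summed to 155.6 to 175.2 CPM in controls and 104.2 to 110.1 with EET, with 3 of 5 lower in either fit. Fibro-adipogenic markers summed to 310.1 to 313.2 CPM in controls and 273 to 283.9 with EET, with 2 of 6 lower, or 3 of 6 after trend removal. Macrophage markers summed to 284.4 to 315.9 CPM in controls and 175.1 to 355.4 with EET, with 2 of 6 lower, or 3 of 6, and EET 1 stood apart from EET 2 and 3 (Lyz2 at 282.8 against 144.7 and 128.4 CPM). Markers of differentiated myocytes rose in 6 of 8 tested, or 3 of 8 after trend removal, and summed to 37.33 to 49.58 CPM in controls and 63.47 to 73.55 with EET. Schwann markers summed to 200 to 211.9 CPM in controls and 172.3 to 208.9 with EET. Of these 5, 3 were lower and 1 higher as counted, or 2 lower and 0 higher after trend removal. Adipocyte markers summed to 6.78 to 11.6 CPM in controls and 12.1 to 16.5 with EET, with 1 of 2 tested higher as counted and 0 after trend removal. No marker on these lists was at 0 in all libraries, and the part of such cells in the results on the members was not tested. In bulk samples, fewer cells of a type and less RNA per cell cannot be told apart.

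With EET, transcripts of Foxo1, Foxo3, Fbxo32, Fbxo30 and Trim32 were lower as counted, Foxo4, Fbxo21 and Klf15 did not pass the test, and Trim63 was close to absent in both groups. Mean CPM of Foxo3 fell by 34.55%, that of Foxo1 fell by 29.99% and that of Fbxo32 fell by 26.46%, the 3 largest falls among the members. After the length and GC trend was removed, Trim32 was the 1 member still called lower. The log2 fold changes of the other 7 tested members then lay between −0.13 and 0.15.

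Of the 8 members tested, 5 were called lower and 0 higher as counted (edgeR's quasi-likelihood test with Benjamini-Hochberg adjustment over all genes, called under 0.05). Over all genes tested 23.3% were called lower and 24.6% higher. No member was higher at an unadjusted p under 0.05 either, and 0 were called higher by DESeq2 and by limma-voom. All 3 EET libraries lay below all 3 controls for 6 of the 8, against 28% of all genes tested. With the trend removed 1 of 8 was called lower and 0 higher, where 13.8% of all genes were called lower and 17.6% higher, and again 0 members were higher at an unadjusted p under 0.05. The median log2 fold change of the 8 was −0.29 as counted and 0.01 with the trend removed, beside 0.005 and 0.001 for all genes tested. The share called lower among the members exceeded that of all genes as counted and was near it with the trend removed.

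**Figure D1:**
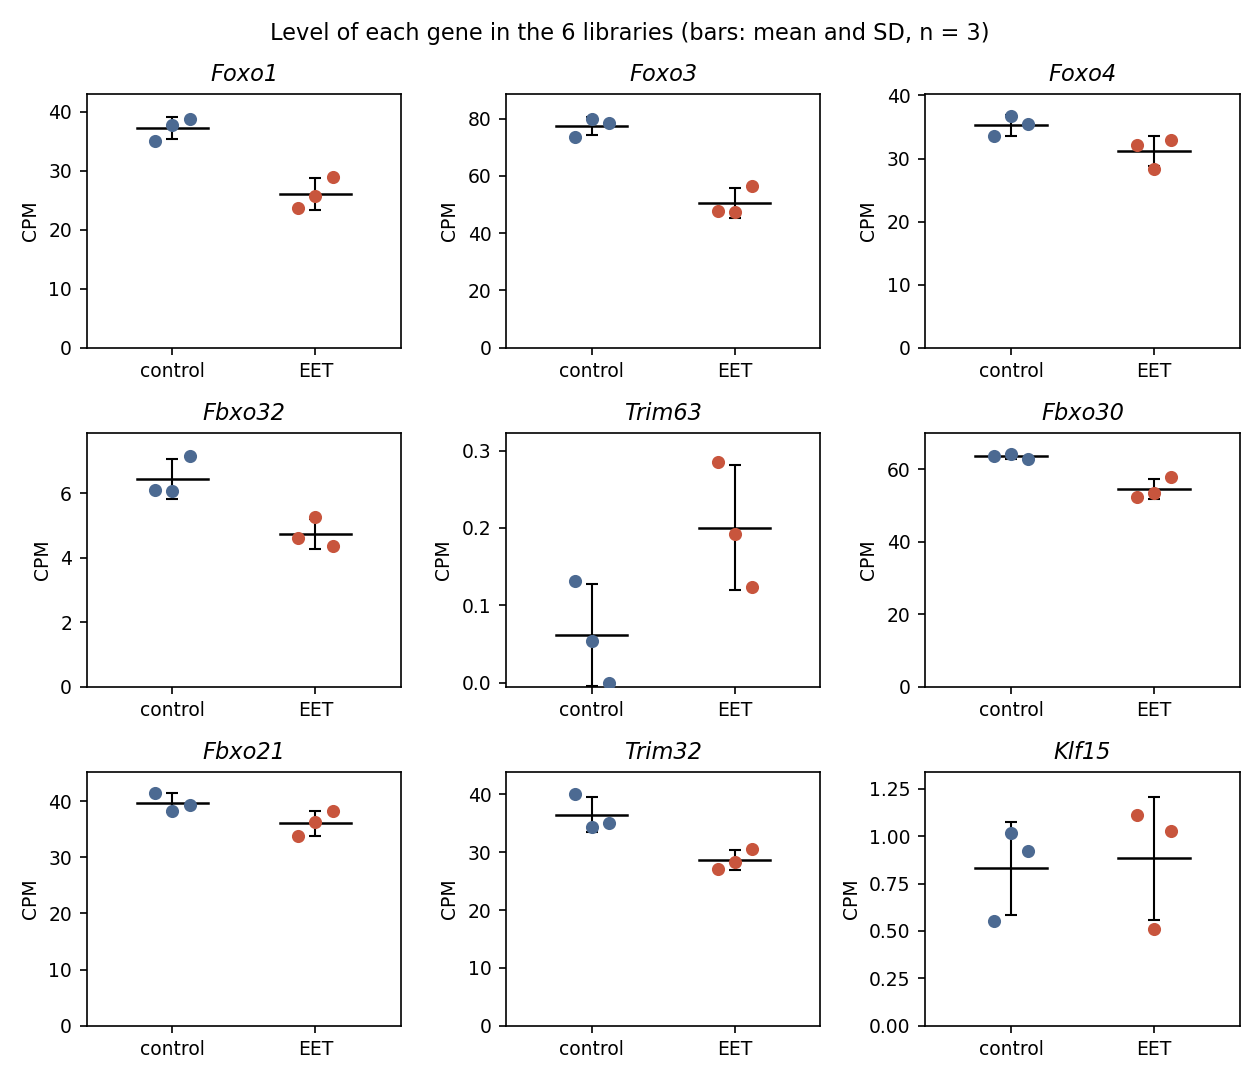
Level of each of the 9 genes in CPM (vertical axes start at about 0 and differ between genes) in the 3 control (blue) and 3 EET (red) libraries, left to right in replicate order, with the mean and SD of each group in black. Foxo1, Foxo3, Foxo4, Fbxo32, Fbxo30 and Trim32 had all EET libraries below all controls, and Trim63 stayed under 0.3 CPM in every library.

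Foxo1 lies on GRCm38 at chr3:52268336-52353221, plus strand, with an mRNA of 8665 bp. It was counted at 35.1, 37.8 and 38.8 CPM in controls 1 to 3 and at 23.6, 25.7 and 28.9 CPM in EET 1 to 3. The groups did not overlap, and the gap between the lowest control and the highest EET library was 6.24 CPM. The mean fell from 37.2 ± 1.89 to 26.05 ± 2.63 CPM (SD, n = 3 each; log2 fold change −0.51 ± 0.09 SE, adjusted p = 0.000362). Its exons overlap the antisense gene Gm20402 over 674 bp, and without a stated strand setting reads of the 2 genes cannot be told apart there.

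Foxo3, the factor most often tied to muscle wasting and to stem cell quiescence, lies at chr10:42181841-42276755, minus strand, with an mRNA of 6848 bp. Controls held 73.7, 79.8 and 78.3 CPM and EET libraries 47.6, 47.5 and 56.6 CPM. Every EET library was below every control, and EET 3 was the EET library nearest to them. The mean fell from 77.3 ± 3.16 to 50.6 ± 5.24 CPM (log2 fold change −0.61 ± 0.08, adjusted p = 3.42e-05). Foxo4, at X:101254528-101260873 on the plus strand and with a shorter mRNA of 3162 bp, held 33.5, 36.8 and 35.5 CPM in controls and 32.2, 28.4 and 33.0 CPM with EET. Its groups did not overlap, but the gap was 0.54 CPM and the change did not pass the test (log2 fold change −0.18 ± 0.09, adjusted p = 0.117). It passed when scaled by library totals alone (adjusted p = 0.0352) and without control 1 and EET 3 (adjusted p = 0.0142), within a range of 0.0142 to 0.389 over the 16 alternatives that keep the length trend.

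Per kilobase of mRNA, Foxo3 made up 42.2 ± 0.12% of the summed FoxO level in controls and 36.4 ± 1.31% with EET. Foxo4 made up 41.7 ± 0.36% in controls and 48.7 ± 2.20% with EET, and Foxo1 16.1 ± 0.37% and 14.9 ± 0.99%. As counted, Foxo3 and Foxo4 were thus nearly level in controls, and Foxo4 was ahead in the EET libraries. With the trend removed, Foxo3 had a mean of 63.7 CPM in controls and 61.4 CPM with EET, before division by length. Foxo4 had 34.7 and 31.6 CPM, so it did not gain on Foxo3 there. The shares are a description, since the mRNAs of the 3 genes differ in length and the libraries differ in their length trend.

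Fbxo32 encodes atrogin-1, the F-box protein through which an SCF ubiquitin ligase recognises muscle proteins. It lies at chr15:58175879-58214932, minus strand, with an mRNA of 6976 bp, and its level was low, at 6.10, 6.08 and 7.15 CPM in controls and 4.62, 5.25 and 4.35 CPM with EET. These values come from 225 to 232 counts per control library and 140 to 164 per EET library. The groups did not overlap, and the mean fell from 6.44 ± 0.62 to 4.74 ± 0.46 CPM (log2 fold change −0.44 ± 0.16, adjusted p = 0.0305). This call was lost in 6 of 16 alternatives, among them the fits without control 2 (adjusted p = 0.0519), control 3 (0.133), EET 1 (0.0731) or EET 3 (0.0831). The adjusted p ranged from 0.0141 to 0.133 over the alternatives. Its exons overlap the antisense gene Gm15943 over 186 bp.

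Trim63, at chr4:134315120-134329629 on the plus strand, encodes MuRF1, a RING ligase of the sarcomere. It had 5, 2 and 0 counts in controls 1 to 3 and 10, 6 and 4 counts in EET 1 to 3. The groups overlapped, since EET 3 had fewer counts than control 1. Summed over libraries it had 7 counts in controls (exact Poisson 95% interval 2.81 to 14.4) and 20 with EET (12.2 to 30.9), a ratio per library total of 2.96 with an interval of 1.2 to 8.27 that covers counting error only. The 0 in control 3 allows up to 3 counts, or 0.0988 CPM by library total without TMM scaling. The filter kept Trim63 out of the reported fit, and in the fit with no filter it was not called (adjusted p = 0.369).

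Trim32 encodes a TRIM ligase that is mutated in a limb-girdle muscular dystrophy and is known in muscle progenitors. It lies at chr4:65604986-65616238, plus strand, within the span of Astn2, and has an mRNA of 3194 bp. Controls held 40.0, 34.4 and 35.1 CPM and EET libraries 27.1, 28.3 and 30.5 CPM. All EET libraries were below all controls, with control 1 the highest. The mean fell from 36.5 ± 3.08 to 28.6 ± 1.75 CPM (log2 fold change −0.35 ± 0.09, adjusted p = 0.00516). With the trend removed the levels were 39.0, 33.6 and 34.5 CPM in controls and 27.4, 29.2 and 30.9 CPM with EET, again without overlap (log2 fold change −0.29 ± 0.08, adjusted p = 0.00587). Trim32 was called lower in 16 of 16 alternatives as counted (log2 fold change −0.42 to −0.28) and in 10 of 10 with the trend removed, where the highest adjusted p was 0.0488.

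Fbxo30, also called MUSA1, is an F-box ligase held down by BMP signalling. It lies at chr10:11281330-11298052, plus strand, with an mRNA of 5060 bp, and held 63.6, 64.3 and 62.7 CPM in controls and 52.4, 53.6 and 57.8 CPM with EET. Its groups did not overlap, and the mean fell from 63.5 ± 0.79 to 54.6 ± 2.83 CPM (log2 fold change −0.22 ± 0.07, adjusted p = 0.0226). The call was lost without control 2, control 3, EET 1 or EET 2 (adjusted p = 0.0849, 0.0606, 0.0801 and 0.0835), the lowest of 16 alternatives being 0.00139. Fbxo21, also called SMART and needed for denervation atrophy, lies at chr5:117976730-118010201, plus strand, with an mRNA of 3959 bp. It held 41.5, 38.2 and 39.4 CPM in controls and 33.8, 36.2 and 38.2 CPM with EET, and EET 3 was slightly above control 2. Its change did not pass the test (log2 fold change −0.14 ± 0.08, adjusted p = 0.198) in the reported fit or in any of its 16 alternatives.

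Klf15 encodes a Krüppel-like factor that glucocorticoids induce in muscle and that raises enzymes of branched-chain amino acid breakdown. It lies at chr6:90462576-90475238, plus strand, with an mRNA of 2482 bp. It was near the filter, at 0.552, 1.02 and 0.922 CPM in controls and 1.11, 0.512 and 1.02 CPM with EET. The ranges overlapped almost wholly, and the sums were 88 counts in either group. Its log2 fold change of 0.10 ± 0.41 (adjusted p = 0.869) has a standard error that would cover a change in either direction at this depth.

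**Figure D2:**
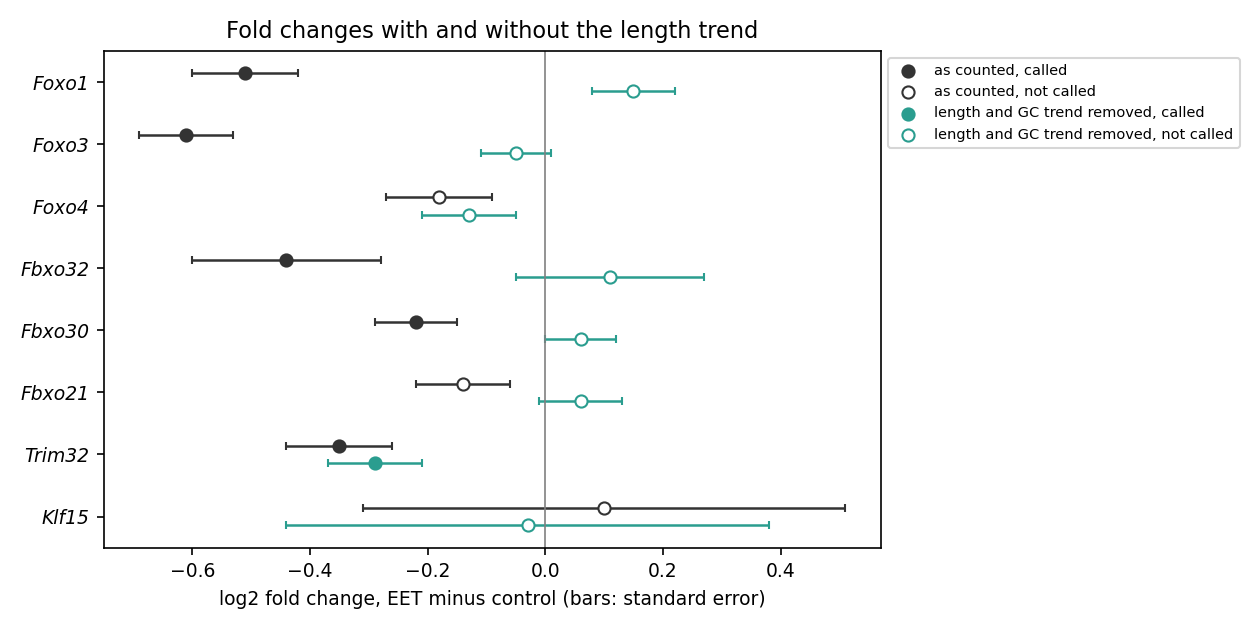
Log2 fold change (EET minus control, horizontal axis) with its standard error for the 8 tested members, as counted (black) and with the length and GC trend taken out (green), and filled points for adjusted p under 0.05. Foxo1 moves from −0.51 to 0.15 and Foxo3 from −0.61 to −0.05, and Trim32 from −0.35 to −0.29.

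The members with the longest mRNAs fell furthest as counted. The trend estimated from all protein-coding genes gave a log2 difference between EET and control libraries of −0.66 at the length and GC of Foxo1, −0.56 for Foxo3 and −0.55 for Fbxo32. It gave −0.28 for Fbxo30, −0.20 for Fbxo21, −0.06 for Trim32, −0.05 for Foxo4 and 0.12 for Klf15. Among all protein-coding genes with mRNAs of 6000 to 8000 bp 70.6% were called lower, among those of 8000 bp and over 72.7%, and among those of 3000 to 4000 bp 20.1%. Foxo3 and Fbxo32 belong to the first class, Foxo1 to the second, and Foxo4, Trim32 and Fbxo21 to the third.

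With the trend removed, Foxo1 was at 31.0, 28.2 and 29.6 CPM in controls and 31.5, 33.3 and 33.4 CPM with EET. All EET libraries then lay above all controls, but the change did not pass the test (log2 fold change 0.15 ± 0.07, adjusted p = 0.141). Foxo3 had a log2 fold change of −0.05 ± 0.06 (adjusted p = 0.522), Foxo4 −0.13 ± 0.08 (adjusted p = 0.201) and Fbxo32 0.11 ± 0.16 (adjusted p = 0.644). Fbxo30 and Fbxo21 both stood at 0.06 (adjusted p = 0.519 and 0.571) and Klf15 at −0.03 (adjusted p = 0.963). The groups overlapped for these 6 genes. The share of all tested genes without overlap was not determined with the trend removed, so the separation of Foxo1 and Trim32 has no background there. The difference between Trim32 and the other members was not itself tested.

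**Figure D3:**
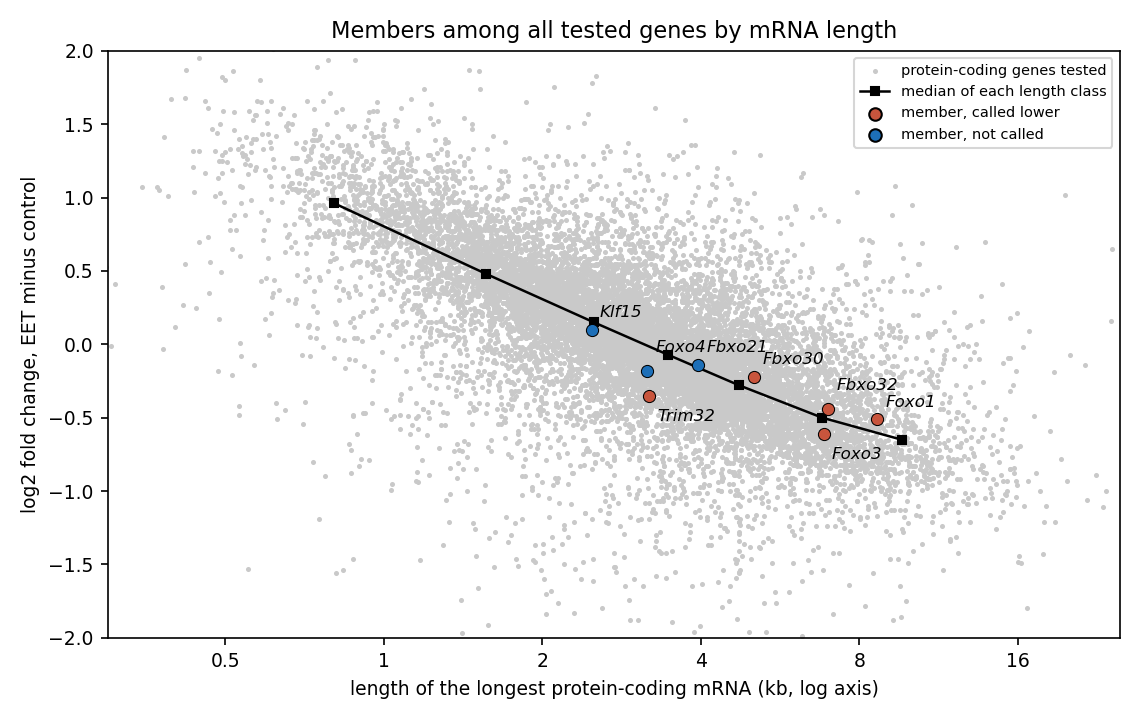
Log2 fold change (EET minus control, as counted) against the length of the longest protein-coding mRNA (log axis) for all tested protein-coding genes (grey, those beyond the vertical axis not drawn), with the median of 7 length classes (black squares) and the 8 tested members (red, called lower; blue, not called). Medians run from 0.96 to −0.65, and Trim32 at −0.35 lies farther below the line than the other members of similar length.

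Per kilobase of mRNA, Fbxo30 was the highest member in controls, at 12.6 ± 0.16 CPM per kb (SD, n = 3). Trim32 at 11.4 ± 0.96, Foxo3 at 11.3 ± 0.46 and Foxo4 at 11.15 ± 0.52 CPM per kb followed, and differed from each other by less than 1 SD. Fbxo21 was at 10.03 ± 0.43 and Foxo1 at 4.29 ± 0.22 CPM per kb. Fbxo32, at 0.92 ± 0.09, Klf15, at 0.33 ± 0.10, and Trim63, at 0.033 ± 0.035 CPM per kb, were far below the rest. Among the ligases that are members, the 2 classical atrophy ligases were thus the lowest, and Fbxo30, Trim32 and Fbxo21 the abundant ones. With EET the order was Fbxo30 (10.8 ± 0.56 CPM per kb), Foxo4 (9.86 ± 0.77), Fbxo21 (9.12 ± 0.56), Trim32 (8.97 ± 0.55) and Foxo3 (7.39 ± 0.77). Foxo4 and Fbxo21, and Fbxo21 and Trim32, differed by less than 1 SD of Foxo4, and Foxo3 stood lower. Foxo1 was at 3.01 ± 0.30, Fbxo32 at 0.68 ± 0.07, Klf15 at 0.36 ± 0.13 and Trim63 at 0.11 ± 0.043 CPM per kb.

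Genes around the members were read from 10 lists of 6 to 24 genes, and some genes stand on more than 1 list. Where a gene has a pair of log2 fold changes in brackets, the first is as counted and the second is with the trend removed. The members' relatives and inputs were mostly lower as counted and divided in direction with the trend removed. Of 6 other forkhead genes 5 were lower and 0 higher as counted (0 also at an unadjusted p under 0.05, and by DESeq2 and limma-voom), or 2 lower and 2 higher with the trend removed. Foxk1, which competes with FoxO3 at autophagy genes, fell from 64.2 ± 8.91 to 32.3 ± 4.98 CPM (log2 fold change −0.99 and −0.41). Foxj3, a regulator of Mef2c in muscle, fell from 80.0 ± 2.72 to 54.7 ± 2.68 CPM (−0.55 and −0.22). Foxk2 and Foxp1 fell as counted (−0.19 and −0.24) and rose with the trend removed (0.16 and 0.32).

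In the insulin, PI3K and Akt pathway, which restrains FoxO, 14 of 21 genes were lower and 1 higher as counted, or 5 and 5 with the trend removed. The median log2 fold change was −0.44, or −0.04 with the trend removed. Pdpk1, the kinase that activates Akt, fell from 80.9 ± 9.12 to 43.4 ± 6.14 CPM (log2 fold change −0.90 and −0.34). Irs2, an insulin receptor substrate and itself a FoxO target, fell from 24.9 ± 2.57 to 14.5 ± 1.02 CPM (−0.78 and −0.31). Akt1 was the gene called higher as counted, and rose from 408.6 ± 28.3 to 462.8 ± 16.9 CPM (adjusted p = 0.043). That call was lost under RLE scaling, library totals, no filter and DESeq2, without control 2, control 3, EET 1 or EET 2, and with the trend removed (0.07, adjusted p = 0.243). None of the 5 genes higher with the trend removed was called higher as counted.

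Among 23 proteins that bind or modify FoxO, 11 were lower and 4 higher as counted, or 3 and 5 with the trend removed. Prmt1, an arginine methyltransferase that acts on FOXO1 near its Akt site, rose from 395.5 ± 36.9 to 629.3 ± 48.6 CPM (log2 fold change 0.67 and 0.45). Stub1, the ligase CHIP, rose from 47.7 ± 5.23 to 83.6 ± 10.3 CPM (0.81 and 0.40). Ep300, an acetyltransferase and FoxO coactivator, fell from 110.7 ± 18.8 to 50.6 ± 7.18 CPM (−1.13 and −0.46).

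Of 24 FoxO target genes 21 were tested, and 9 were lower and 4 higher as counted, or 7 and 2 with the trend removed. Fasl, G6pc and Igfbp1 did not pass the filter. The median log2 fold change was −0.25 as counted and −0.21 with the trend removed. Bcl6, a transcriptional repressor, fell from 50.0 ± 3.12 to 37.7 ± 2.10 CPM (log2 fold change −0.41 and −0.28). Eif4ebp1, the translation repressor 4E-BP1, rose from 58.6 ± 4.32 to 104.8 ± 19.1 CPM (0.84 and 0.59), and Sod2, the mitochondrial superoxide dismutase, from 89.3 ± 2.08 to 113.5 ± 6.38 CPM (0.35 and 0.76). The size of the correction for Sod2 rests on its longest annotated mRNA, of 5861 bp. Lower in both fits beside Bcl6 were Txnip, Pdk4, Cat and Irs2, named here after their values were seen. Pdk4, which turns fuel use from glucose to fat, fell from 67.8 ± 3.33 to 54.6 ± 3.35 CPM, Txnip, a thioredoxin inhibitor, from 33.6 ± 0.77 to 28.2 ± 0.62 CPM, and catalase, Cat, from 70.3 ± 2.46 to 59.9 ± 3.69 CPM.

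Autophagy genes, which FoxO3 is also known to raise in muscle, were more often higher than lower. Of 19, 10 were higher and 4 lower as counted, or 8 and 2 with the trend removed. Gabarapl2, an Atg8-family protein of the autophagosome, rose from 28.3 ± 1.82 to 46.5 ± 3.81 CPM (log2 fold change 0.72 and 0.33), and Ctsl, the lysosomal protease cathepsin L, from 293.1 ± 16.4 to 402.5 ± 25.1 CPM (0.46 and 0.92). The longest mRNA annotated for Ctsl, of 6168 bp, sets the size of its correction. Ulk1, the kinase that starts autophagy, fell from 45.4 ± 2.33 to 31.2 ± 1.94 CPM (−0.54 and −0.19). The count of lower genes was 2 in the fits without control 3 or EET 2.

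Of 19 genes of the SCF core and of ubiquitin supply, 11 were higher and 3 lower as counted, or 11 and 1 with the trend removed. The 2 sets of 11 share 7 genes. Cand1, which exchanges the substrate receptors of cullins, turned from called lower (−0.39) to called higher (0.19), and the conjugating enzyme gene Ube2d1 from higher (0.22) to lower (−0.29); both were named after their values were seen. Nedd8, the modifier that activates cullins, rose from 45.0 ± 4.12 to 100.9 ± 15.6 CPM (log2 fold change 1.16 and 0.23). Ube2b, the conjugating enzyme E2-14K long tied to muscle wasting, rose from 43.2 ± 2.73 to 73.6 ± 0.81 CPM (0.77 and 0.43), and Skp1a, the adaptor that joins F-box proteins such as atrogin-1 to the cullin, from 166.1 ± 8.75 to 267.1 ± 23.4 CPM (0.69 and 0.33). These 3 mRNAs are short, at 824, 1792 and 1754 bp.

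Among other ubiquitin ligases studied in muscle, 18 of 20 genes were tested (Fbxo40 and Trim54 were too low), and 10 were lower and 3 higher as counted, or 3 and 3 with the trend removed. Ubr4, a ligase of the N-degron pathway, fell from 342.7 ± 46.0 to 176.3 ± 15.2 CPM (log2 fold change −0.96 and −0.30). Nedd4, a HECT ligase, fell from 1397 ± 105.3 to 917.3 ± 93.4 CPM (−0.61 and −0.19) and its relative Itch from 97.6 ± 7.90 to 65.0 ± 6.98 CPM (−0.59 and −0.23). Stub1, given above, is also on this list and rose in both fits.

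Of 11 reported substrates of the ligases, 8 were higher and 1 lower as counted, or 4 and 0 with the trend removed, where 6 were higher and 1 lower at an unadjusted p under 0.05. Dtnbp1 (dysbindin), a Trim32 substrate, rose from 23.1 ± 1.12 to 41.4 ± 4.17 CPM (log2 fold change 0.84 and 0.39). Desmin, Des, an intermediate filament protein also degraded through Trim32, rose from 593.8 ± 56.5 to 864.4 ± 82.5 CPM (0.54 and 0.55). Eif3f, a translation factor degraded through atrogin-1, rose from 320.4 ± 38.8 to 441 ± 46.4 CPM (0.46 and 0.36). Abi2 was the gene called lower as counted (−0.36 and 0.04), and Pias4 was not called in either fit (0.06 and −0.09). Abi2 and Pias4 were named after their values were seen. These are RNA levels, which do not measure degradation of the proteins, and a link to the ligases was not tested. Of the markers of differentiated myocytes, given above, 6 of 8 were higher in the same libraries as counted and 3 of 8 with the trend removed. Ckm stands on both lists. The count of higher substrates was 5 without EET 2.

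Of 19 genes of the glucocorticoid and Klf15 axis 18 were tested (Tat was too low), with 7 higher and 6 lower as counted, or 3 and 4 with the trend removed. The metallothionein Mt1 rose from 34.9 ± 1.65 to 82.4 ± 14.9 CPM (log2 fold change 1.24 and 0.48), with reads that it may share with its close copy Mt2. Fkbp4, a co-chaperone of the glucocorticoid receptor, rose from 330.9 ± 18.0 to 463.9 ± 22.9 CPM (0.49 and 0.29), and Cebpd, a transcription factor, from 25.7 ± 2.42 to 38.1 ± 3.73 CPM (0.57 and 0.74). The size of the correction for Cebpd rests on its longest annotated mRNA, of 3746 bp. Fkbp5 and Tsc22d3, standard reporters of glucocorticoid action, did not pass the test in either fit (log2 fold change −0.12 and 0.21 as counted). Ddit4 (−0.26 and −0.65), Sgk1 (−0.18 and −0.14) and Errfi1 (−0.18 and −0.16) were lower in both fits. The list thus had 3 genes lower in both fits and 3 higher in both, the latter Mt1, Fkbp4 and Cebpd. Per1 (−0.51 and −0.24) and Klf9 (−0.44 and −0.15) were lower as counted only. Fkbp5, Tsc22d3, Ddit4, Sgk1, Errfi1, Per1 and Klf9 were named after their values were seen. Without control 3, 4 genes were higher and 3 lower.

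Among 21 atrophy inputs through activin, BMP and NF-kB, 20 were tested (myostatin, Mstn, was too low). As counted 13 were lower and 1 higher, or 4 and 3 with the trend removed. BMP signalling holds Fbxo30 down, as given above, so the genes of this list do not all act on atrophy in the same direction. The count of lower genes, Bmpr2 among them, therefore gives no direction for the drive to atrophy. Inhba, the activin A subunit, fell from 312.9 ± 32.7 to 180.1 ± 23.0 CPM (log2 fold change −0.80 and −0.35). Bmpr2, a BMP receptor, fell from 145.4 ± 18.6 to 84.7 ± 10.9 CPM (−0.78 and −0.16), and Smad3, which carries activin signals to the nucleus, from 43.7 ± 3.36 to 27.8 ± 3.85 CPM (−0.65 and −0.29). Tnfrsf12a, the TWEAK receptor Fn14, was the gene called higher as counted, at 168.2 ± 9.34 and 303.7 ± 26.5 CPM, and did not pass with the trend removed (0.04, adjusted p = 0.524). Without control 3 the count of lower genes was 8.

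**Figure D4:**
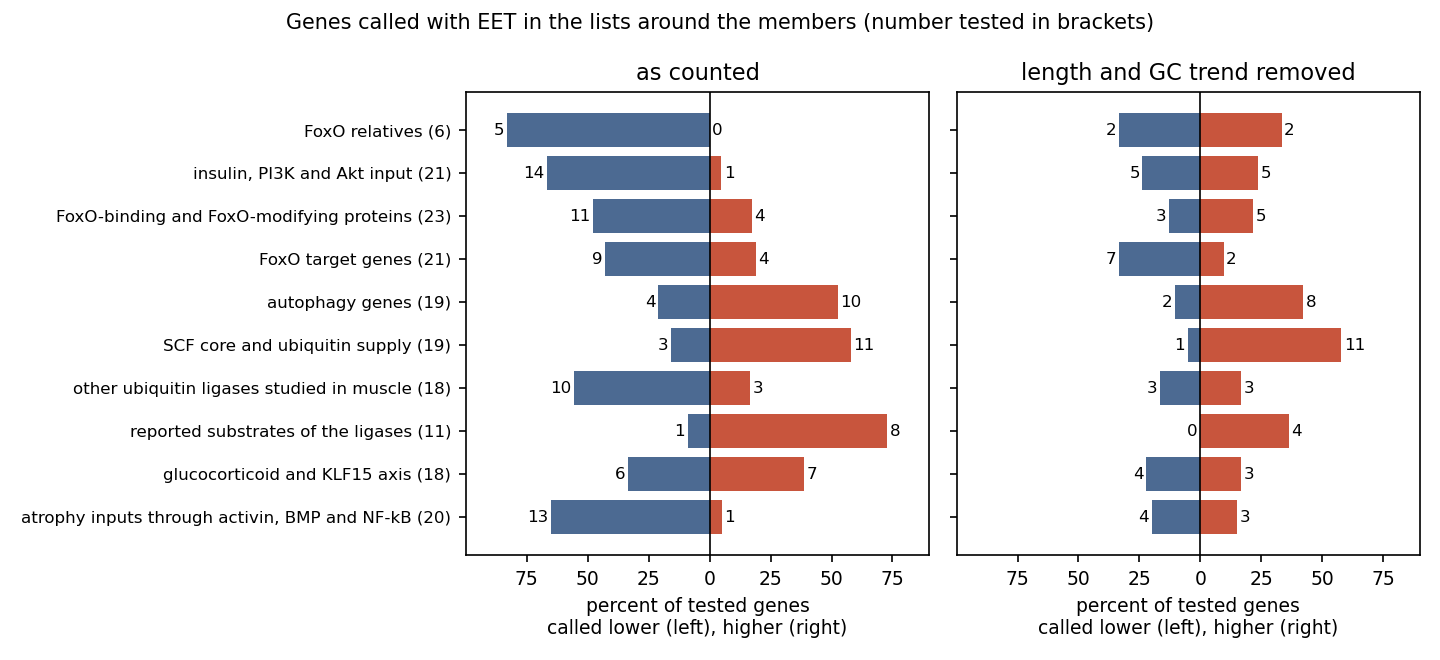
Percent of the tested genes of each list that were called lower (blue, left) or higher (red, right) with EET, as counted (left panel) and without the length and GC trend (right panel), with the number of genes at each bar. Insulin and Akt inputs go from 14 lower and 1 higher to 5 and 5, and the SCF core and ubiquitin supply has 11 higher in each panel, 7 of them the same genes.

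The genes most like Foxo1, Foxo3 and Fbxo32 across the 6 libraries were sought by Pearson's r of log2(CPM + 0.5) among 9972 protein-coding genes with a mean of at least 5 CPM. For Foxo1 they were Nckap1 (r = 0.9996), the Schwann marker Sox10 (0.9996) and Glce (0.9994), and 2096 genes had an r above 0.95. For Foxo3 they were Ptpn11 (0.9997), Zc3hav1 (0.9996) and Kctd10 (0.9993), with 2125 genes above 0.95. Both genes therefore followed a pattern that a large part of the table shares. Fbxo32 was most like Btbd11 (0.9872), Nln (0.9863) and Ahr (0.9814), with 34 genes above 0.95. The 6 points of each comparison share the difference between groups and the length trend of the libraries.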

How the data were processed

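The authors deposited raw counts, as whole numbers for each gene symbol and library. The submitters' processing notes name FastQC, cutadapt, DESeq2 and the build GRCm38, while aligner, counter, strand setting and annotation were not given in the sources used here. All 6 libraries were fitted with edgeR 4.0.16 in R 4.3.3 after filterByExpr and TMM scaling (robust glmQLFit, glmQLFTest), with adjustment over 16097 genes. CPM are TMM scaled unless stated otherwise, and ± of log2 fold changes are standard errors. GENCODE M21 (GRCm38) matched 53292 rows by symbol and gave coordinates and the longest protein-coding mRNA. The length and GC trend was removed as an offset per library, from a loess (degree 2, span 0.3) on log2 length and GC percent, centred on the median gene. DESeq2 1.42.0, limma-voom (limma 3.58.1) and other settings were alternatives. Named list genes are the up to 3 with the smallest p called in the same direction in both fits, leaving out members and genes named for an earlier list; 1 gene this rule selects is not reported here. The members, lists and tests were chosen with earlier results of these data known, so genes named as called in both fits do not support either fit.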

Additional observations from a re-analysis of the deposited data

How the results depend on the processing

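The number of members called lower, 5 as counted, was 1 after removal of the length and GC trend, 1 after removal of the length trend alone and 1 after removal of both with the replicate block. Leaving out 1 library at a time gave 3 to 5, with 3 without control 2, control 3 or EET 1. With the trend removed the 1 member became 2 without control 1 and EET 3, where Foxo4 joined Trim32 (log2 fold change −0.23, adjusted p = 0.0314). Genes called lower over the whole table were 3749 as counted, 2222 after removal of the length and GC trend, 2177 with the length trend alone and 2340 with the replicate block added. With the trend removed, leaving out 1 library at a time gave 1457 to 2218, with 1457 without control 2 and 1478 without EET 2. The sign turned in the 3 trend-removed fits (length and GC, length alone, replicate block) for Foxo1 (0.15, 0.13 and 0.15), Fbxo32 (0.11, 0.11 and 0.11) and Fbxo30 (0.06, 0.12 and 0.06). It turned as well for Fbxo21 (0.06, 0.05 and 0.06) and Klf15 (−0.03, −0.04 and −0.04), which were not called in any of these fits. The trend offset by its construction subtracts the fold change of mRNAs of like length, and its cause was not tested. Fbxo32 also lost its call without a filter (adjusted p = 0.0532) and without control 1 and EET 3 (0.0604). Of 20 counts over the lists, 14 moved by over 1.5 times with the trend removed and at most 5 under any other setting. Same-numbered libraries did not deviate together (r = −0.02, −0.05 and −0.001 across genes), so the numbers were not treated as pairs. The replicate block gave 5 members lower, 4083 genes lower and 4238 higher, and changed no member's call. Counts divided by 2, since both mates may have been counted, left the calls of the members as they were. Depth limits Trim63 and Klf15.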
